A study of Homo sapiens with 12 samples.

Results

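The docetaxel-resistant subline of DU145, called DU145-R, was compared with the parental DU145 line across all measured genes. DU145 is a human prostate carcinoma line, taken originally from a brain metastasis, that grows without androgen. The comparison used 6 of the 12 libraries of the study, 3 labelled control and 3 labelled docetaxel resistance; the other 6 libraries come from the prostate line PC3 and its own resistant subline and served to estimate the spread. Resistance had been selected in culture by raising the docetaxel concentration stepwise, from 10 to an IC50 of 1800 in the unit the labels write as nm/ml. The labels give no genotype beyond the line, and neither say whether DU145-R is a single clone nor whether the drug was present when RNA was taken. Nothing in them states that the 3 libraries of a group are separate cultures, so the p-values measure the spread between these libraries, which may be technical. Of 38611 genes in the count files, 24128 passed the filter on low counts and were tested.

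Docetaxel is a taxane. It binds beta-tubulin inside the microtubule wall, stabilises the polymer and so arrests dividing cells in mitosis. Cells selected in taxanes are known for raised drug export by P-glycoprotein, the product of ABCB1, for changed tubulin isotypes and microtubule-binding proteins, and for changed responses to mitotic arrest. Epithelial tumour cells held under drug also often differ from their parents in junctions, matrix and stress pathways.

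The 6 DU145 libraries held 62513103 to 68170880 counts each. Along the first principal component of their log2 levels, which held 83.5% of the variance, the 3 parental libraries lay on one side and the 3 resistant ones on the other, and along the second (4.74%) resistant replicate 3 stood apart. Transcripts of the mitochondrial genome took 3.98% to 4.30% of the counts in the parental libraries and 7.04% to 7.14% in the resistant ones. The epithelial genes KRT8, KRT18 and EPCAM were present in all 6 libraries, and PTPRC, CD3D, CD163 and TEK, which define leukocytes, T cells, macrophages and endothelium, were at 0 in all 6. Other markers were not: the 11 leukocyte markers summed to 16.2 to 19.7 CPM (counts per 1000000 of the TMM-scaled library) in the parental and 19.8 to 39.1 CPM in the resistant libraries, nearly all of it CD68, with 1051 to 1210 and 1317 to 2541 counts. The 8 endothelial markers summed to 3.77 to 5.21 CPM and 1.39 to 2.97 CPM. In each of these lists 1 gene fell, ESAM among the endothelial ones, and CD68 was called higher. Summed levels of 13 fibroblast and smooth muscle markers were 40.1 to 57.5 CPM in the parental and 22.7 to 27.0 CPM in the resistant libraries, with 3 called lower, and the part of these markers in the results below was not tested.

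The lines differed across much of the transcriptome. With edgeR's quasi-likelihood test and Benjamini-Hochberg adjustment, 9554 genes (39.6%) passed an adjusted p of 0.05, 4556 of them (18.9%) higher and 4998 (20.7%) lower in DU145-R. A log2 change of at least 1 was reached by 3135 of them, 1735 higher and 1400 lower. Abundant genes were called more often: of the 11784 genes averaging at least 5 CPM over the DU145 libraries, 63.7% were called, 28.9% higher and 34.7% lower, with a median log2 change of -0.04. These shares are the background for every gene list below, whose counts are given for members of at least 5 CPM. The libraries of the groups did not overlap for 51.2% of all tested genes. Protein-coding genes were called in 54.5% of cases, genes with only long noncoding transcripts in 14.2% and pseudogenes in 11.8%. In what follows a gene rose or fell if it passed the test, and unless values are given to the contrary all 3 resistant libraries then lay beyond all 3 parental ones; pairs of levels are parental then resistant means of 3 libraries, and each log2 change carries its standard error. Libraries are of bulk RNA, so fewer cells that express a gene and less of its RNA per cell cannot be told apart.

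**Figure D1:**
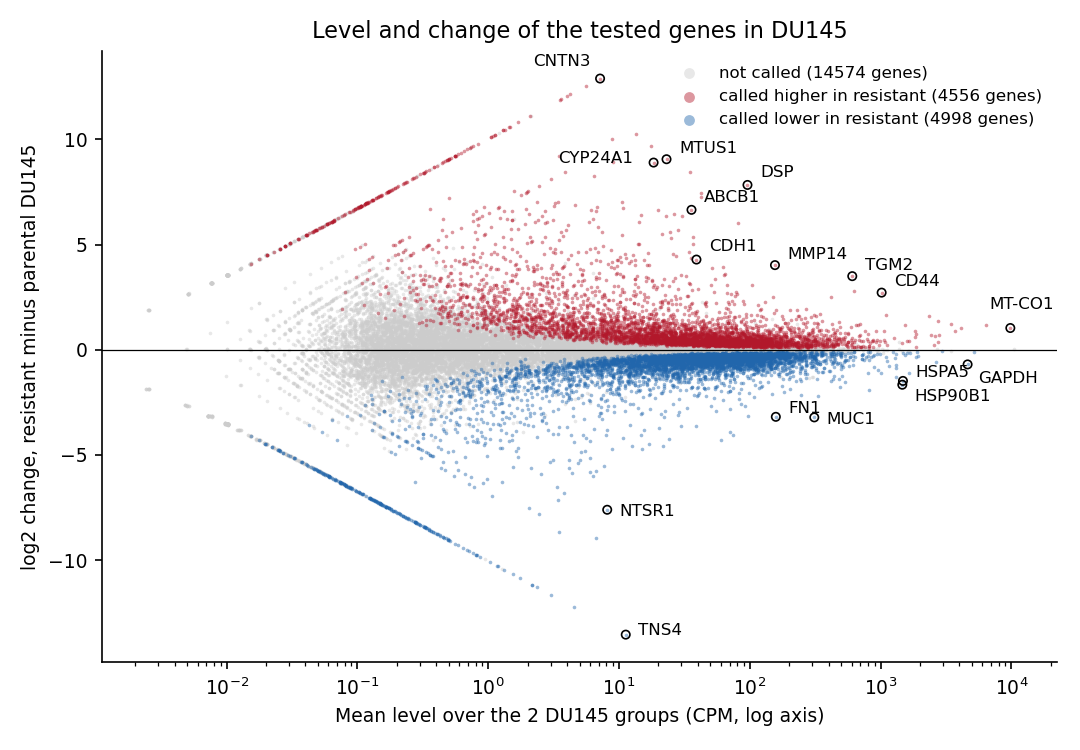
Each point is one of the 24128 tested genes, with its mean level over both DU145 groups (CPM, log axis, horizontal) against its log2 change in DU145-R relative to the parental line (vertical); red points were called higher, blue points lower, and circled genes are named. Called genes lie on both sides of 0 at all levels, and the straight lines at low levels are genes with 0 counts in one group.

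At the extremes stood genes that were silent or nearly so in one line. In 49 genes the mean went from under 1 CPM to at least 10 CPM, and in 15 it went the other way. CNTN3, which encodes a contactin of the cell surface, had 0, 0 and 0 CPM in the parental libraries and 15.3, 13.7 and 13.9 CPM in the resistant libraries. It was thus at least 958-fold higher in DU145-R, with 3 counts over the 3 parental libraries taken as the floor. MTUS1, a microtubule-associated tumour suppressor on chromosome 8 (chr8:17643795-17800917, minus strand, GRCh38), had 0.0578, 0.0601 and 0.138 CPM in the parental libraries and 48.9, 47.7 and 41.5 CPM in the resistant libraries (log2 change 9.05 ± 0.22, adjusted p = 8.23e-14). CYP24A1, the hydroxylase that inactivates vitamin D, had 0, 0 and 0.231 CPM in the parental libraries and 36.3, 34.1 and 39.5 CPM in the resistant libraries. Only parental replicate 3 held any CYP24A1 counts, so its fold change is not quoted (8.90 on the log2 scale with that library and 14.25 without it). BCHE, the serum-type cholinesterase, had 0.217, 0.120 and 0.261 CPM in the parental libraries and 71.7, 68.5 and 69.2 CPM in the resistant libraries (log2 change 8.44 ± 0.30, adjusted p = 5.56e-11). FOXP1, a forkhead repressor, had 0.0722, 0 and 0.0461 CPM in the parental libraries and 12.1, 12.9 and 13.7 CPM in the resistant libraries. S1PR3, a receptor for sphingosine 1-phosphate, had 0.0433, 0.0601 and 0 CPM in the parental libraries and 17.3, 17.5 and 18.7 CPM in the resistant libraries. In each of these 6 genes the resistant libraries were all high and the parental ones all near 0.

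In the other direction TNS4, a tensin of focal adhesions, had 21.5, 20.8 and 25.2 CPM in the parental libraries and 0, 0 and 0 CPM in the resistant libraries. That is at least 1479.6-fold lower in DU145-R by the same floor. NTSR1, the neurotensin receptor, had 17.0, 15.1 and 16.4 CPM in the parental libraries and 0.0904, 0 and 0.151 CPM in the resistant libraries. The homeobox genes IRX5 and LHX1, which act in tissue patterning, fell from 13.01 to 0.238 CPM (log2 change -5.76 ± 0.31) and from 24.3 to 1.005 CPM (log2 change -4.59 ± 0.30). LCN2, the iron-siderophore carrier lipocalin 2, fell from 11.6 to 0.329 CPM (log2 change -5.13 ± 0.40). BCL2A1, an anti-apoptotic BCL2 relative under NF-kB control, fell from 11.9 to 0.207 CPM (log2 change -5.82 ± 0.55). SYT12, a synaptotagmin, and AP1M2, the epithelial clathrin adaptor subunit, fell from 28.9 to 1.10 CPM (log2 change -4.72 ± 0.36) and from 10.7 to 0.381 CPM (log2 change -4.80 ± 0.34). Counted in CPM rather than in fold, which favours long and abundant transcripts, the largest gains after the mitochondrial transcripts were CD44, the hyaluronan receptor, with 283, 272 and 253 CPM in the parental libraries and 1841, 1758 and 1699 CPM in the resistant libraries, and ACTB, cytoplasmic beta-actin, from 2015 to 3167 CPM (log2 change 0.65 ± 0.03). The largest losses by that measure included the glycolytic enzyme GAPDH from 5719.7 to 3527 CPM (log2 change -0.70 ± 0.03), HSP90B1 and HSPA5 of the endoplasmic reticulum, the giant scaffold AHNAK from 3171 to 2107 CPM (log2 change -0.59 ± 0.03), the cytolinker PLEC from 2249 to 1043 CPM (log2 change -1.11 ± 0.04) and FLNC, filamin C, from 1292 to 341 CPM (log2 change -1.92 ± 0.05). Hence GAPDH and ACTB, both often used as reference genes, moved in opposite directions between these lines.

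**Figure D2:**
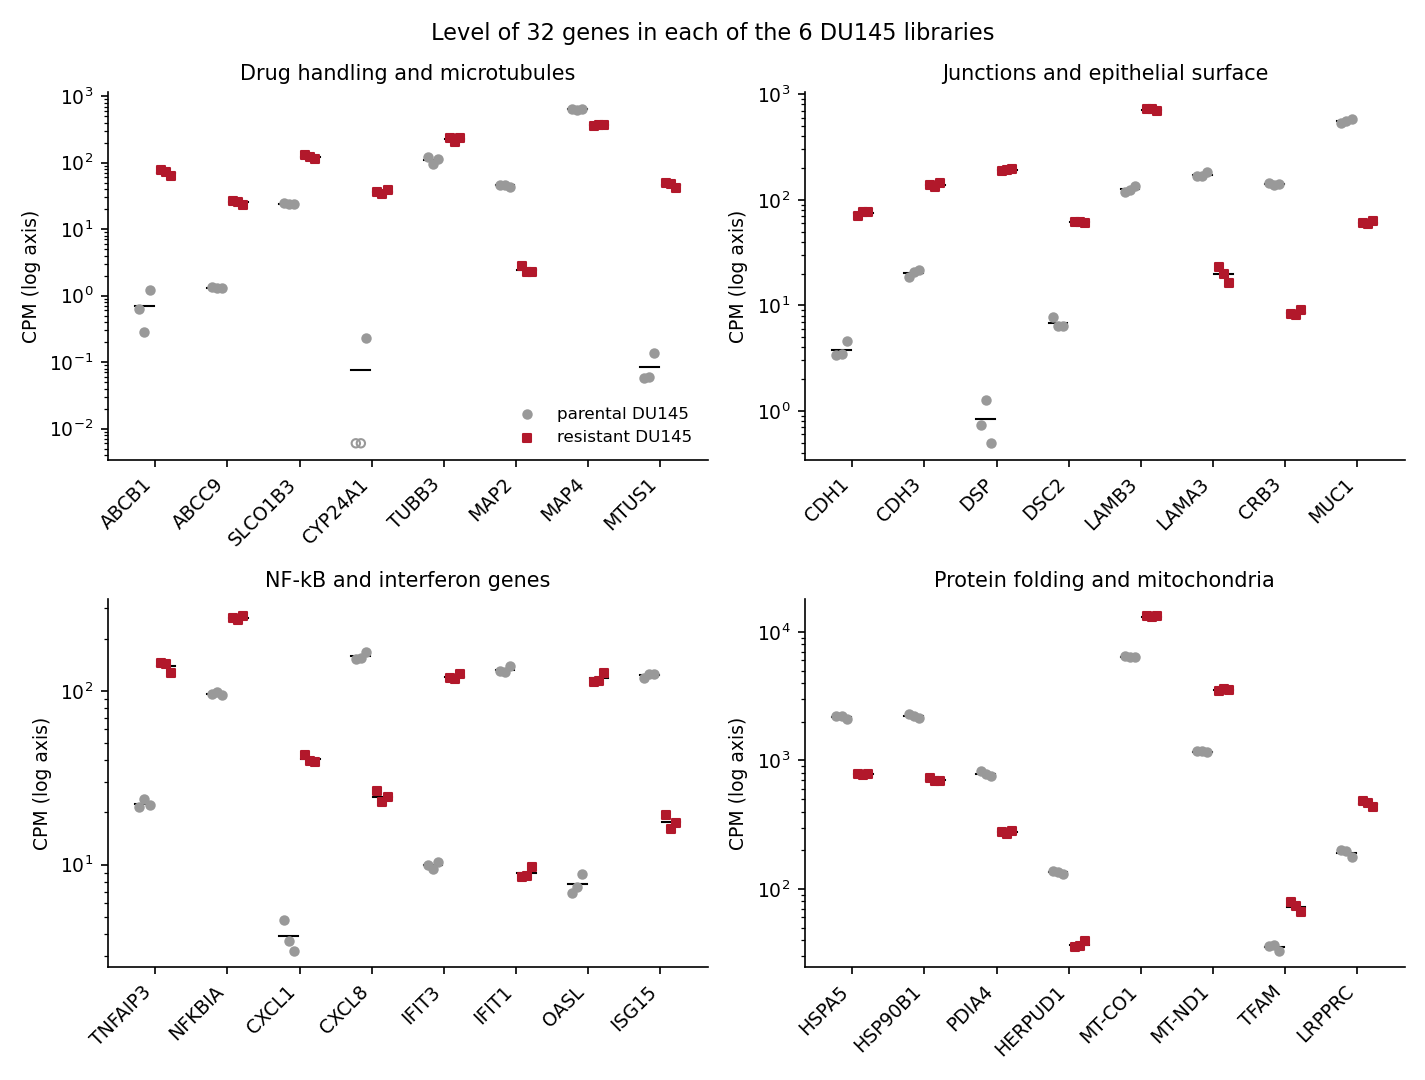
Level of 32 genes in each of the 6 DU145 libraries (CPM, log axis), in 4 panels by gene group; grey circles are parental and red squares resistant libraries, black bars are group means, and open circles mark the parental CYP24A1 libraries at 0. The parental and resistant libraries of each gene do not overlap. This was so for 51.2% of all tested genes and was required of genes named from a list by their change.

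Drug export is the best-known route to taxane resistance. ABCB1 (ENSG00000085563, chr7:87503017-87713323, minus strand) had 0.621, 0.285 and 1.22 CPM in the parental libraries and 77.3, 71.9 and 63.5 CPM in the resistant libraries (log2 change 6.65 ± 0.54, adjusted p = 5.12e-06). All resistant libraries were high, and the parental level rested on few counts: without parental replicate 3 the log2 change was 7.28. Among ABC transporters, 12 of the 27 members of at least 5 CPM were called higher and 6 lower (median log2 change 0.04). ABCC9, the sulfonylurea receptor subunit of potassium channels, had 1.34, 1.31 and 1.32 CPM in the parental libraries and 27.0, 26.0 and 22.9 CPM in the resistant libraries (log2 change 4.25 ± 0.35, adjusted p = 1.49e-07). The multidrug resistance protein ABCC10, which can carry taxanes, rose from 35.9 to 58.4 CPM (log2 change 0.70 ± 0.09). ABCC1 was at 129 and 119.8 CPM (log2 change -0.10 ± 0.05, adjusted p = 0.114) and ABCG2 was at 1.28 and 2.13 CPM (log2 change 0.73 ± 0.78, adjusted p = 0.527). The lipid transporters ABCA2 and ABCA3 fell from 144 to 81.2 CPM (log2 change -0.83 ± 0.07) and from 58.6 to 37.0 CPM (log2 change -0.66 ± 0.07).

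Uptake carriers and oxidising enzymes also differed. SLCO1B3, an organic anion carrier that imports docetaxel in liver, had 24.6, 23.8 and 23.8 CPM in the parental libraries and 130.2, 121 and 114 CPM in the resistant libraries (log2 change 2.34 ± 0.07, adjusted p = 4.24e-13), although 54.5% of its exon length is shared with the readthrough gene SLCO1B3-SLCO1B7. The prostaglandin carrier SLCO2A1 rose from 0.468 to 6.89 CPM (log2 change 3.88 ± 0.40). SLC22A3, the organic cation transporter 3, was at 0 in the parental libraries and at 7.22, 7.60 and 6.45 CPM in the resistant ones, at least 475-fold higher. SLC22A31, an orphan relative, fell from 39.4 to 5.26 CPM (log2 change -2.91 ± 0.16). Of the carrier genes of these families, 4 of the 6 members of at least 5 CPM were called higher and 1 lower (median log2 change 0.80). CYP3A5, of the subfamily that oxidises docetaxel, rose from 3.53 to 6.63 CPM (log2 change 0.91 ± 0.21), and CYP2S1 rose from 1.75 to 12.3 CPM (log2 change 2.81 ± 0.21). The retinoic acid hydroxylase CYP26B1 fell from 19.8 to 5.04 CPM (log2 change -1.97 ± 0.33), so that enzymes which clear vitamin D and retinoic acid moved in opposite directions. ALDH1A3, which makes retinoic acid, had 2.04, 3.86 and 4.09 CPM in the parental libraries and 69.5, 68.8 and 64.4 CPM in the resistant libraries (log2 change 4.35 ± 0.18, adjusted p = 2.59e-08). AKR1C3, a steroid-reducing enzyme, had 54.9, 56.2 and 62.6 CPM in the parental libraries and 7.94, 8.40 and 9.44 CPM in the resistant libraries (log2 change -2.75 ± 0.12, adjusted p = 3.2e-11). Of the cytochromes P450 5 of 12 were higher and 3 lower, of the conjugating enzymes 4 of 14 were higher and 7 lower, and of the aldo-keto reductases and aldehyde dehydrogenases 4 of 17 were higher and 8 lower.

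Tubulin is the drug's target, and its genes moved both ways. Of the tubulin genes, 5 of the 15 members of at least 5 CPM were called higher (33.3%) and 3 lower (20%). Among all genes of that level the shares were 28.9% and 34.7%. The median log2 change was 0.09 for these 15 and -0.07 over all 28 tested tubulins. TUBB3, the neuronal class III isotype linked to taxane resistance, had 121, 96.2 and 113 CPM in the parental libraries and 235, 207 and 239 CPM in the resistant libraries (log2 change 1.05 ± 0.07, adjusted p = 1.36e-08). TUBB2A and TUBB2B rose from 11.6 to 18.7 CPM (log2 change 0.69 ± 0.13) and from 5.72 to 11.9 CPM (log2 change 1.05 ± 0.18), and the broadly expressed TUBB from 1449 to 2224 CPM (log2 change 0.62 ± 0.03). TUBB6 and TUBA4A fell from 356 to 242 CPM (log2 change -0.56 ± 0.05) and from 55.6 to 35.9 CPM (log2 change -0.63 ± 0.07), while TUBB4B was at 476 and 508 CPM (log2 change 0.09 ± 0.05, adjusted p = 0.127) and TUBA1B was at 1679.9 and 1602 CPM (log2 change -0.07 ± 0.06, adjusted p = 0.386). Per transcript length, the beta isotypes ranked alike in both lines at the top: TUBB stood at 365 ± 9.68 and 552 ± 10.1 FPKM (SD), TUBB4B at 240.1 ± 4.71 and 252 ± 6.20 FPKM, TUBB6 at 92.8 ± 2.07 and 62.05 ± 2.51 FPKM and TUBB3 at 15.2 ± 1.69 and 30.9 ± 2.32 FPKM. The tubulins have near-identical coding sequences, so reads may have been divided between them. TTLL7, which adds glutamate to tubulin tails, had 63.9, 58.3 and 56.9 CPM in the parental libraries and 22.4, 23.1 and 17.3 CPM in the resistant libraries (log2 change -1.51 ± 0.10, adjusted p = 6.58e-09). TTLL3, which adds glycine, fell from 27.1 to 7.17 CPM (log2 change -1.92 ± 0.12). The deacetylase HDAC6 fell from 49.0 to 28.2 CPM (log2 change -0.80 ± 0.07). VASH1, which removes the terminal tyrosine of alpha-tubulin, rose from 6.60 to 13.7 CPM (log2 change 1.05 ± 0.14), and over the folding and modifying enzymes as a whole 3 of the 21 members of at least 5 CPM were called higher and 7 lower (median log2 change -0.08).

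Structural microtubule-associated proteins bind the lattice, and stathmins bind free tubulin. For the structural microtubule-associated proteins and stathmins, 6 of the 20 members of at least 5 CPM were called higher and 11 lower (median log2 change -0.56), against 28.9% higher and 34.7% lower among all genes of that level; over all 28 tested members, low ones included, 10 were higher and 12 lower, with a median of -0.12. MAP2, the dendritic lattice-binding protein, had 47.0, 46.6 and 43.7 CPM in the parental libraries and 2.79, 2.25 and 2.26 CPM in the resistant libraries (log2 change -4.23 ± 0.18, adjusted p = 3.45e-11). All 3 resistant libraries were about as low as each other and far under the parental ones. MAP1A, its axonal and dendritic relative, fell from 12.6 to 1.92 CPM (log2 change -2.72 ± 0.12). The ubiquitous MAP4 fell from 636 to 367 CPM (log2 change -0.79 ± 0.03). MAPT, which encodes tau and competes with taxanes for the lattice, fell from 25.3 to 14.0 CPM (log2 change -0.85 ± 0.11). The doublecortin-like kinase DCLK2 fell from 6.83 to 1.70 CPM (log2 change -2.00 ± 0.19). Among the stathmins, which sequester tubulin dimers, STMN1 fell from 292 to 201 CPM (log2 change -0.54 ± 0.05) and STMN3 rose from 1.13 to 6.46 CPM (log2 change 2.51 ± 0.22). At plus ends, where 10 of 26 were higher and 11 lower, CLIP2 rose from 12.3 to 30.8 CPM (log2 change 1.33 ± 0.06). SLAIN1 rose from 4.68 to 17.5 CPM (log2 change 1.902 ± 0.14) and the neuron navigators NAV1 and NAV2 fell from 144 to 56.2 CPM (log2 change -1.35 ± 0.07) and from 46.2 to 21.8 CPM (log2 change -1.09 ± 0.06).

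Motor genes moved both ways. The minus-end kinesin KIFC3, which tethers microtubules at adherens junctions, had 43.0, 46.3 and 44.5 CPM in the parental libraries and 222, 215 and 216 CPM in the resistant libraries (log2 change 2.29 ± 0.07, adjusted p = 4.22e-13). The spindle motor KIFC1 rose from 64.9 to 112 CPM (log2 change 0.78 ± 0.05). KIFC2 and KIF26B fell from 64.8 to 20.9 CPM (log2 change -1.63 ± 0.08) and from 76.1 to 16.3 CPM (log2 change -2.22 ± 0.23). KIF11, the bipolar spindle kinesin, rose from 117 to 139 CPM (log2 change 0.25 ± 0.06). Over all kinesins 9 of 32 were higher (28.1%) and 12 lower (37.5%), near the 28.9% and 34.7% among all genes of that level. Over dynein and dynactin 6 of 23 were higher (26.1%) and 9 lower (39.1%). The dynein heavy chain DYNC1H1 rose from 1388 to 2308 CPM (log2 change 0.73 ± 0.03).

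Taxanes arrest cells through the spindle checkpoint, the surveillance system that holds chromosomes until all are attached. Of its genes and those of the kinetochore, 15 of the 37 members of at least 5 CPM were called higher and 6 lower (median log2 change 0.11). The checkpoint kinase BUB1B had 109, 105 and 102 CPM in the parental libraries and 181, 175 and 170.5 CPM in the resistant libraries (log2 change 0.74 ± 0.05, adjusted p = 1.1e-08). SKA3 and CENPH, of the outer and inner kinetochore, rose from 13.3 to 33.3 CPM (log2 change 1.32 ± 0.10) and from 10.9 to 26.5 CPM (log2 change 1.28 ± 0.13). CENPF, a large outer kinetochore protein, fell from 441 to 344 CPM (log2 change -0.36 ± 0.07), and MAD2L1, the checkpoint effector, was at 95.4 and 87.1 CPM (log2 change -0.13 ± 0.05, adjusted p = 0.0541). Among mitotic kinases, cyclins and exit factors 12 of 27 were higher and 7 lower: AURKA, the centrosomal kinase, had 88.6, 74.7 and 77.3 CPM in the parental libraries and 182, 174 and 182 CPM in the resistant libraries (log2 change 1.16 ± 0.07, adjusted p = 1.28e-09). UBE2C, the ubiquitin-conjugating enzyme of the anaphase-promoting complex, rose from 49.7 to 108 CPM (log2 change 1.11 ± 0.06). BORA, the activator of AURKA, fell from 29.3 to 15.2 CPM (log2 change -0.94 ± 0.14), as did the centrosomal kinase NEK2 from 70.2 to 44.1 CPM (log2 change -0.67 ± 0.07) and the CDK1 inhibitor WEE1 from 46.8 to 31.8 CPM (log2 change -0.56 ± 0.09).

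Regulators of G1 moved both ways (7 of 23 higher and 10 lower). CDKN2C, the CDK4 and CDK6 inhibitor p18, had 29.4, 30.7 and 33.7 CPM in the parental libraries and 89.4, 93.2 and 81.8 CPM in the resistant libraries (log2 change 1.495 ± 0.07, adjusted p = 1.84e-10). CDKN1A, which encodes p21, rose from 33.4 to 78.4 CPM (log2 change 1.23 ± 0.10). The relatives CDKN2B and CDKN2D fell from 25.5 to 13.7 CPM (log2 change -0.90 ± 0.09) and from 11.9 to 4.15 CPM (log2 change -1.52 ± 0.18). RB1 rose from 37.5 to 60.7 CPM (log2 change 0.70 ± 0.08). Replication genes gave 18 of 46 higher and 9 lower, with the clamp-loader subunit RFC3 from 26.5 to 63.1 CPM (log2 change 1.25 ± 0.08) and the nucleotide reductase subunit RRM2 from 180.0 to 319.7 CPM (log2 change 0.83 ± 0.05), and the helicase subunit MCM7 lower from 346 to 267 CPM (log2 change -0.38 ± 0.05). BRCA2, the recombination mediator, had 24.6, 30.6 and 26.8 CPM in the parental libraries and 77.4, 79.8 and 67.7 CPM in the resistant libraries (log2 change 1.46 ± 0.09, adjusted p = 5.25e-09). FANCF, a Fanconi core subunit, rose from 0.812 to 6.57 CPM (log2 change 3.01 ± 0.25). NBN, of the break-sensing complex, fell from 170.4 to 113 CPM (log2 change -0.60 ± 0.07). Homologous recombination and Fanconi genes gave 13 of 37 higher and 10 lower. The mismatch repair gene PMS2 rose from 24.1 to 41.4 CPM (log2 change 0.78 ± 0.09). For mismatch and excision repair together 11 of 36 were higher and 10 lower. Of stress-induced genes, GADD45B rose from 23.3 to 55.3 CPM (log2 change 1.25 ± 0.09) and PMAIP1, which encodes the death factor NOXA, fell from 74.1 to 29.3 CPM (log2 change -1.34 ± 0.07).

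Cell junction genes held several of the largest changes. DSP, the desmoplakin that anchors keratin to desmosomes, had 0.737, 1.28 and 0.492 CPM in the parental libraries and 186, 191 and 196 CPM in the resistant libraries (log2 change 7.83 ± 0.22, adjusted p = 3.66e-11). CDH1 (chr16:68737292-68835537, plus strand), which encodes E-cadherin, had 3.41, 3.42 and 4.60 CPM in the parental libraries and 70.1, 75.9 and 77.0 CPM in the resistant libraries (log2 change 4.29 ± 0.31, adjusted p = 6.55e-07). The resistant libraries were high and the parental ones low for both. The desmosomal cadherins DSC2 and DSC3 rose from 6.84 to 61.5 CPM (log2 change 3.17 ± 0.09) and from 0.427 to 10.7 CPM (log2 change 4.66 ± 0.17), and CDH3, P-cadherin, from 20.4 to 137 CPM (log2 change 2.75 ± 0.16). The desmosome list as a whole gave 7 of 12 higher and 2 lower with a median log2 change of 1.16, while PKP4, a plakophilin, fell from 130.4 to 86.7 CPM (log2 change -0.59 ± 0.07). In the adherens junction list 6 of 11 were higher and 5 lower: EPCAM rose from 18.4 to 48.5 CPM (log2 change 1.40 ± 0.11), but NECTIN3 and the catenin CTNNA1, both adhesion partners, fell from 62.8 to 22.3 CPM (log2 change -1.49 ± 0.09) and from 519 to 383 CPM (log2 change -0.44 ± 0.07). CDH2, N-cadherin, was near the floor in both lines, at 0.210 and 0.0458 CPM.

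Tight junction and polarity genes moved both ways (10 of 27 higher and 13 lower). CLDN11 and CLDN1, sealing claudins, rose from 1.31 to 32.2 CPM (log2 change 4.61 ± 0.18) and from 22.2 to 133 CPM (log2 change 2.58 ± 0.09), and CGNL1, paracingulin, from 0.757 to 6.54 CPM (log2 change 3.11 ± 0.24). CRB3, the apical polarity determinant Crumbs 3, had 143, 138 and 142 CPM in the parental libraries and 8.21, 8.11 and 9.09 CPM in the resistant libraries (log2 change -4.06 ± 0.40, adjusted p = 2.76e-05). LLGL2, the basolateral polarity protein, fell from 61.1 to 14.0 CPM (log2 change -2.13 ± 0.10). Both polarity genes were low in every resistant library. The mucin MUC1, an apical glycoprotein, had 536, 560.0 and 589 CPM in the parental libraries and 60.3, 58.4 and 62.6 CPM in the resistant libraries (log2 change -3.22 ± 0.12, adjusted p = 4.54e-10). The gap junction connexin GJA1 rose from 1.65 to 11.5 CPM (log2 change 2.81 ± 0.17). KRT8 and KRT18, the paired simple-epithelial keratins, rose from 392 to 685 CPM (log2 change 0.80 ± 0.04) and from 291 to 572 CPM (log2 change 0.97 ± 0.04), and KRT19 fell from 213 to 172 CPM (log2 change -0.31 ± 0.04). The keratin list held 2 of 7 higher and 2 lower and the gap junction list 2 of 5 higher and 1 lower.

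The list of epithelial transcription and splicing factors, which also holds membrane and protease genes, was higher in 9 of 12 members (75.0%). It was lower in 1, KLF5, from 86.9 to 67.7 CPM. MAL2, SPINT1 and SPINT2, among those that rose, are not transcription or splicing factors. Over all 23 tested, low ones included, 14 were higher and 3 lower. TFAP2C, an AP-2 factor, had 0.202, 0.150 and 0.138 CPM in the parental libraries and 12.02, 11.96 and 13.2 CPM in the resistant libraries (log2 change 6.22 ± 0.14, adjusted p = 2.86e-14). Below the 5 CPM level, the splicing regulator ESRP1, which sets epithelial isoforms, rose from 0.115 to 4.22 CPM (log2 change 5.17 ± 0.81). The low members EHF and SPDEF were called lower, at 0.660 and 0.0661 CPM and at 0.918 and 0.111 CPM. ESRP2 was not called, at 46.5 and 52.4 CPM. SPINT1, a membrane inhibitor of the protease matriptase, rose from 1.54 to 29.7 CPM (log2 change 4.28 ± 0.26). Mesenchymal factors gave 3 of 7 higher and 2, TWIST2 and ZEB1, lower. TWIST2 fell from 11.2 to 3.57 CPM (log2 change -1.66 ± 0.25), while HMGA2 and SOX4 rose from 8.41 to 22.0 CPM (log2 change 1.39 ± 0.07) and from 3.86 to 22.8 CPM (log2 change 2.56 ± 0.14). ZEB2, which averaged below 5 CPM and is not among the 7, fell from 4.74 to 1.55 CPM (log2 change -1.61 ± 0.34). ZEB1 was at 45.2, 49.4 and 44.0 CPM in the parental and 42.1, 38.3 and 31.6 CPM in the resistant libraries (log2 change -0.31 ± 0.09, adjusted p = 0.0135), and this call was lost without parental replicate 2 (adjusted p = 0.0652) or resistant replicate 3 (adjusted p = 0.0631). Over all 16 tested members 6 were higher and 3 lower. Below the 5 CPM level, and chosen after their values were seen, SNAI2 rose from 0.184 to 3.10 CPM (log2 change 4.06 ± 0.36) and SNAI1 from 1.48 to 3.89 CPM (log2 change 1.40 ± 0.47). The intermediate filament VIM fell from 1417 to 1226 CPM (log2 change -0.21 ± 0.03).

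Matrix genes moved both ways. FN1, fibronectin, had 280.2, 289 and 285 CPM in the parental libraries and 27.9, 31.1 and 34.8 CPM in the resistant libraries (log2 change -3.19 ± 0.08, adjusted p = 4.14e-12). HSPG2, the basement membrane proteoglycan perlecan, fell from 405 to 91.5 CPM (log2 change -2.15 ± 0.08) and FBN1, fibrillin, fell from 25.1 to 5.21 CPM (log2 change -2.27 ± 0.10). PXDN, peroxidasin, which crosslinks collagen IV, had 0.202, 0.436 and 1.03 CPM in the parental libraries and 82.6, 86.3 and 82.2 CPM in the resistant libraries, a log2 change of 7.25 that became 8.04 without parental replicate 3. NID1, a basement membrane linker, rose from 5.24 to 43.3 CPM (log2 change 3.05 ± 0.12). LTBP1, which stores latent TGF-beta in the matrix, rose from 0.920 to 19.3 CPM (log2 change 4.39 ± 0.10). TGM2, a transglutaminase that crosslinks matrix proteins, had 96.7, 101 and 98.9 CPM in the parental libraries and 1116, 1113 and 1116 CPM in the resistant libraries (log2 change 3.50 ± 0.05, adjusted p = 6.5e-16). For matrix glycoproteins and crosslinkers 10 of 24 were higher and 14 lower, and for basement membrane genes 7 of 12 were higher and 5 lower.

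The chains of laminin-332, the anchor under epithelial cells, moved apart. LAMB3 had 119, 125 and 136 CPM in the parental libraries and 718, 729 and 698 CPM in the resistant libraries (log2 change 2.50 ± 0.05, adjusted p = 9.04e-15). LAMA3, which encodes the alpha chain of the same trimer, had 167, 167 and 185 CPM in the parental libraries and 22.8, 19.7 and 16.3 CPM in the resistant libraries (log2 change -3.14 ± 0.10, adjusted p = 2.98e-11). The hemidesmosome list held 3 of 9 higher and 3 lower. Of the collagens 7 of 14 were higher and 6 lower, while over all 32 tested 9 were higher and 14 lower (median log2 change -0.54). COL13A1, a transmembrane collagen, rose from 0.991 to 18.7 CPM (log2 change 4.24 ± 0.11) and the basement membrane chain COL4A1 rose from 4.68 to 21.5 CPM (log2 change 2.20 ± 0.12). COL4A5 fell from 24.0 to 9.25 CPM (log2 change -1.37 ± 0.10). Among integrins (4 of 11 higher and 2 lower) the collagen receptor chain ITGA2 rose from 50.2 to 194 CPM (log2 change 1.95 ± 0.06) and ITGB3 fell from 12.7 to 1.58 CPM (log2 change -2.996 ± 0.28).

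Metalloproteases and their inhibitors moved both ways. MMP14, the membrane-type collagenase (chr14:22836560-22849027, plus strand), had 18.2, 17.4 and 18.5 CPM in the parental libraries and 291, 303 and 286 CPM in the resistant libraries (log2 change 4.02 ± 0.05, adjusted p = 7.42e-17). ADAM19, a sheddase, had 0.231, 0.436 and 0.800 CPM in the parental libraries and 82.0, 84.6 and 86.8 CPM in the resistant libraries (log2 change 7.44 ± 0.20, adjusted p = 3.83e-11). ADAMTS15, an aggrecanase-type protease, rose from 0.148 to 7.70 CPM (log2 change 5.67 ± 0.32). For metalloproteases and their inhibitors as a whole, 7 of 20 were higher and 7 lower. Of the plasminogen system and serpins, 10 of 13 members (76.9%) were higher and 3 lower. SERPINA1, alpha-1-antitrypsin, had 0.708, 0.345 and 0.692 CPM in the parental libraries and 54.5, 52.5 and 48.6 CPM in the resistant libraries (log2 change 6.47 ± 0.31, adjusted p = 1.56e-09). SERPINB9, the granzyme B inhibitor, rose from 1.03 to 12.97 CPM (log2 change 3.66 ± 0.38). SERPINI1, neuroserpin, and SERPINH1, the collagen chaperone, fell from 44.7 to 7.40 CPM (log2 change -2.59 ± 0.12) and from 184 to 79.8 CPM (log2 change -1.20 ± 0.09). The metastasis-associated S100A4 fell from 40.6 to 12.5 CPM (log2 change -1.70 ± 0.15) within a list of S100 proteins and annexins at 7 of 17 higher and 5 lower.

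Receptor tyrosine kinases were higher more often than lower. Outside the EGF and Eph families, 10 of 16 members (62.5%) rose and 1, AXL, fell from 974 to 812 CPM (log2 change -0.26 ± 0.04). PTK7, a Wnt pathway pseudokinase, had 0.766, 0.931 and 0.877 CPM in the parental libraries and 26.9, 28.1 and 27.8 CPM in the resistant libraries (log2 change 5.01 ± 0.12, adjusted p = 1.12e-13). DDR1, the collagen-activated kinase, and ROR1, a receptor for Wnt ligands, rose from 41.3 to 101 CPM (log2 change 1.29 ± 0.08) and from 23.4 to 60.9 CPM (log2 change 1.38 ± 0.09). EGFR had 199, 202 and 202 CPM in the parental libraries and 504, 515 and 512 CPM in the resistant libraries (log2 change 1.34 ± 0.04, adjusted p = 3.14e-13), while the ligands EGF and NRG1 fell from 15.2 to 1.07 CPM (log2 change -3.82 ± 0.28) and from 20.6 to 3.44 CPM (log2 change -2.58 ± 0.26). CBLC, an epithelial ubiquitin ligase for EGFR, was at 0 in the parental libraries and at 8.47, 7.41 and 9.53 CPM in the resistant ones, at least 567-fold higher, and the EGFR inhibitor LRIG1 rose from 2.35 to 15.7 CPM (log2 change 2.74 ± 0.29). The whole EGF list gave 4 of 14 higher and 6 lower. EPHA2 had 46.5, 45.6 and 42.7 CPM in the parental libraries and 260.4, 257 and 251 CPM in the resistant libraries (log2 change 2.51 ± 0.04, adjusted p = 1.01e-15) within an Eph and ephrin list of 5 of 11 higher and 2 lower.

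Feedback genes of MAP kinase signalling gave 12 of 21 higher and 7 lower. DUSP6, the phosphatase of ERK, rose from 7.07 to 33.8 CPM (log2 change 2.25 ± 0.13), and SPRY1, a Sprouty inhibitor, fell from 8.75 to 4.70 CPM (log2 change -0.89 ± 0.20). Among AP-1 factors (5 of 9 higher and 3 lower) JUND and ATF3 fell from 78.7 to 30.0 CPM (log2 change -1.39 ± 0.07) and from 16.9 to 5.28 CPM (log2 change -1.68 ± 0.15) and MAFF rose from 12.3 to 25.5 CPM (log2 change 1.05 ± 0.08). For Hippo components and YAP targets 14 of 29 were higher and 8 lower: LATS2, the kinase that restrains YAP, rose from 20.1 to 47.8 CPM (log2 change 1.25 ± 0.09). VGLL4, a competitor of YAP for TEAD factors, fell from 63.4 to 27.1 CPM (log2 change -1.23 ± 0.07).

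Genes of the Wnt pathway moved both ways. SFRP1, which binds Wnt ligands, had 0.275, 0.270 and 0.492 CPM in the parental libraries and 25.1, 33.5 and 28.8 CPM in the resistant libraries (log2 change 6.39 ± 0.34, adjusted p = 4.83e-10). RSPO3, which amplifies Wnt signals, had 0.116, 0.225 and 0.138 CPM in the parental libraries and 20.8, 21.4 and 21.03 CPM in the resistant libraries (log2 change 7.03 ± 0.53, adjusted p = 6.78e-08). WNT9A fell from 14.1 to 1.93 CPM (log2 change -2.87 ± 0.19). RNF43, a ubiquitin ligase for Frizzled receptors, was at 10.1, 8.61 and 8.66 CPM in the parental libraries and at 0 in the resistant ones, though 73.9% of its exon length overlaps other genes. Across Wnt ligands, receptors and inhibitors 9 of 24 were higher and 8 lower. PMEPA1, a feedback inhibitor of TGF-beta signalling, had 4.80, 3.94 and 5.83 CPM in the parental libraries and 48.4, 47.5 and 44.2 CPM in the resistant libraries (log2 change 3.27 ± 0.19, adjusted p = 1.92e-09). SMAD3 rose from 117 to 230.0 CPM (log2 change 0.98 ± 0.04). The co-receptor TGFBR3 fell from 46.1 to 12.3 CPM (log2 change -1.91 ± 0.08), with 9 of 29 higher and 9 lower over the TGF-beta and BMP list. In the Notch list 3 of 22 members rose and 10 fell (45.5%). The Notch target HES1 was at 0.188, 0 and 0 CPM in the parental and at 4.84, 3.68 and 4.85 CPM in the resistant libraries, and LFNG, the Fringe enzyme that tunes Notch, fell from 5.34 to 0.380 CPM (log2 change -3.81 ± 0.30). In the IGF axis (6 of 15 higher and 7 lower) the docking protein IRS1 had 19.6, 17.1 and 17.0 CPM in the parental libraries and 113, 115 and 123 CPM in the resistant libraries and its relative IRS2 had 72.5, 74.97 and 72.7 CPM in the parental libraries and 30.2, 29.4 and 28.9 CPM in the resistant libraries. IRS1 was thus high and IRS2 low in all 3 resistant libraries. IGFBP4 rose from 22.2 to 187 CPM (log2 change 3.08 ± 0.08). Of the prostate lineage genes 2 of 10 were higher and 4 lower.

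NF-kB is a family of transcription factors held in the cytoplasm by inhibitors that it also induces. Of its subunits and feedback inhibitors, 14 of the 29 members of at least 5 CPM were called higher and 4 lower (median log2 change 0.24). TNFAIP3, the deubiquitinase A20, had 21.5, 23.8 and 21.9 CPM in the parental libraries and 145, 144 and 127 CPM in the resistant libraries (log2 change 2.63 ± 0.07, adjusted p = 2.57e-13). NFKBIA, the inhibitor I-kappa-B alpha, rose from 96.3 to 262 CPM (log2 change 1.45 ± 0.04). NFKBIZ rose from 8.28 to 26.7 CPM (log2 change 1.69 ± 0.10). BIRC3 and CYLD, a ligase and a deubiquitinase of the same pathway, fell from 146 to 66.5 CPM (log2 change -1.13 ± 0.08) and from 76.7 to 40.2 CPM (log2 change -0.93 ± 0.06). Chemokines of one genomic cluster on chromosome 4 moved in opposite directions. CXCL1 had 4.80, 3.64 and 3.20 CPM in the parental libraries and 42.7, 39.4 and 38.9 CPM in the resistant libraries and CXCL5 rose too from 1.54 to 25.05 CPM (log2 change 4.02 ± 0.16). CXCL2 had 53.3, 53.2 and 58.4 CPM in the parental libraries and 5.18, 3.84 and 4.18 CPM in the resistant libraries, and CXCL8, interleukin 8, had 153, 154 and 167 CPM in the parental libraries and 26.5, 23.1 and 24.5 CPM in the resistant libraries. CXCL1 was thus high, and CXCL2 and CXCL8 low, in every resistant library. The cytokine CSF2 had 8.70, 6.67 and 7.32 CPM in the parental libraries and 0.0904, 0 and 0.106 CPM in the resistant libraries, and IL1RL1, the receptor for interleukin 33, fell from 12.01 to 0.892 CPM (log2 change -3.75 ± 0.16). IL4R and IL1RAP, receptor chains for interleukins 4 and 1, rose from 2.36 to 51.9 CPM (log2 change 4.46 ± 0.14) and from 4.10 to 32.03 CPM (log2 change 2.96 ± 0.12). For interleukins, their receptors and colony-stimulating factors 11 of 26 were higher and 12 lower.

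Interferon-stimulated genes moved both ways. They are transcribed when a complex that holds STAT2 and IRF9, or an IRF factor, binds the interferon-stimulated response element, and they encode antiviral effectors. Of them, 13 of the 36 members of at least 5 CPM were called higher (36.1%) and 16 lower (44.4%), with a median log2 change of -0.05. Among all genes of that level the shares were 28.9% and 34.7%, so movement both ways is not particular to this list. OASL, an antiviral OAS relative, had 6.86, 7.47 and 8.86 CPM in the parental libraries and 113, 113 and 127 CPM in the resistant libraries (log2 change 3.93 ± 0.19, adjusted p = 2.26e-09). IFIT3 had 10.0, 9.48 and 10.4 CPM in the parental libraries and 118, 117 and 125 CPM in the resistant libraries (log2 change 3.59 ± 0.09, adjusted p = 2.12e-13). IFIT2 rose from 6.43 to 95.7 CPM (log2 change 3.90 ± 0.11). IFIT1, from the same cluster on chromosome 10, had 131, 128 and 138 CPM in the parental libraries and 8.50, 8.58 and 9.68 CPM in the resistant libraries (log2 change -3.89 ± 0.16, adjusted p = 4.96e-10). ISG15, the ubiquitin-like modifier, had 119, 125 and 125 CPM in the parental libraries and 19.3, 16.1 and 17.5 CPM in the resistant libraries (log2 change -2.80 ± 0.09, adjusted p = 1.08e-12). IFI6 fell from 71.7 to 5.86 CPM (log2 change -3.61 ± 0.24). The neighbours IFIT1 and IFIT3 were thus high in different lines.

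The response element was read in promoter windows of RefSeq (build GRCh38.p14), from 250 bases before to 50 after each gene's start. The letters GAAANNGAAA were searched on both strands. They occurred in 1255 of 35116 windows (3.57%) and in 553 of 13315 tested genes with a window (4.15%). Of the 40 interferon-stimulated genes that were tested and had a window, 29 held them (72.5%). Of those 29 genes, 11 were higher, 11 lower and 7 not called, and of the 11 without a match 4 were higher, 3 lower and 4 not called. So genes with the element were found on both sides. The promoters shown are 1 of a gene that rose and 2 of genes that fell, chosen after their values were seen. Each is written 5′ to 3′ on the gene's strand with the matches in capitals, and a match on the opposite strand reads TTTCNNTTTC.
IFIT3 (chr10:89327816-89327909, plus strand): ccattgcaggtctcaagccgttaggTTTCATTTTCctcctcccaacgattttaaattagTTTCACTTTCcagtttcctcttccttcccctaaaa
IFIT1 (chr10:89392482-89392554, plus strand): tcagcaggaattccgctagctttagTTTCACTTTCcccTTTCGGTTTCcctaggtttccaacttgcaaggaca
ISG15 (chr1:1013359-1013424, plus strand): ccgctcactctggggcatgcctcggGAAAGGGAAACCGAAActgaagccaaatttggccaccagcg

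Sensors and presentation genes followed no single direction. Of the interferon pathway sensors and factors 9 of 22 were higher and 6 lower: STING1, the adaptor for cytosolic DNA sensing, rose from 17.3 to 62.2 CPM (log2 change 1.85 ± 0.12), while JAK2 and STAT2 fell from 33.3 to 13.1 CPM (log2 change -1.35 ± 0.13) and from 87.9 to 53.1 CPM (log2 change -0.73 ± 0.07). For MHC class I presentation 13 of 24 members (54.2%) rose and 5 fell. PSMB8 and PSMB9, catalytic subunits of the immunoproteasome, rose from 4.95 to 28.2 CPM (log2 change 2.51 ± 0.13) and from 0.945 to 8.08 CPM (log2 change 3.09 ± 0.30), and TAP1, the peptide transporter, from 24.5 to 63.4 CPM (log2 change 1.37 ± 0.09). HLA-C rose from 58.3 to 156 CPM (log2 change 1.42 ± 0.07), as a member of a polymorphic family whose reads may be shared. The trimming enzyme ERAP2 and the chaperone CALR fell from 71.4 to 34.6 CPM (log2 change -1.04 ± 0.07) and from 1095 to 517 CPM (log2 change -1.08 ± 0.04). Of the cancer-testis antigens, 4 of 6 rose and none fell, BRDT among them from 17.8 to 42.4 CPM (log2 change 1.25 ± 0.14).

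Genes of cell death moved in both directions within each family. MCL1, a short-lived survival protein, had 413, 420.3 and 414 CPM in the parental libraries and 911, 944 and 938 CPM in the resistant libraries (log2 change 1.16 ± 0.04, adjusted p = 2.76e-12). BCL2L1, which encodes BCL-xL, rose from 174 to 276 CPM (log2 change 0.66 ± 0.04). BAK1, a pore former, rose from 18.7 to 37.7 CPM (log2 change 1.01 ± 0.09) and BNIP3, a mitophagy receptor, fell from 352 to 178 CPM (log2 change -0.99 ± 0.06). BCL2 was at 0.440 and 1.45 CPM. The BCL2 family gave 6 of 15 higher and 7 lower, and over all 22 tested 8 higher and 7 lower. TNFRSF10D, a decoy receptor for TRAIL, had 23.5, 24.2 and 22.6 CPM in the parental libraries and 106, 114 and 121 CPM in the resistant libraries (log2 change 2.27 ± 0.10, adjusted p = 3.24e-11). TNFRSF1B, the second TNF receptor, had 9.55, 8.98 and 10.9 CPM in the parental libraries and 0.377, 0.216 and 0.167 CPM in the resistant libraries (log2 change -5.26 ± 0.34, adjusted p = 4.37e-09). The decoy was high and the TNF receptor near 0 in every resistant library. CASP4, the inflammatory caspase, rose from 10.1 to 37.6 CPM (log2 change 1.902 ± 0.10), with 12 of 32 higher and 10 lower over death receptors, caspases and their inhibitors.

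**Figure D3:**
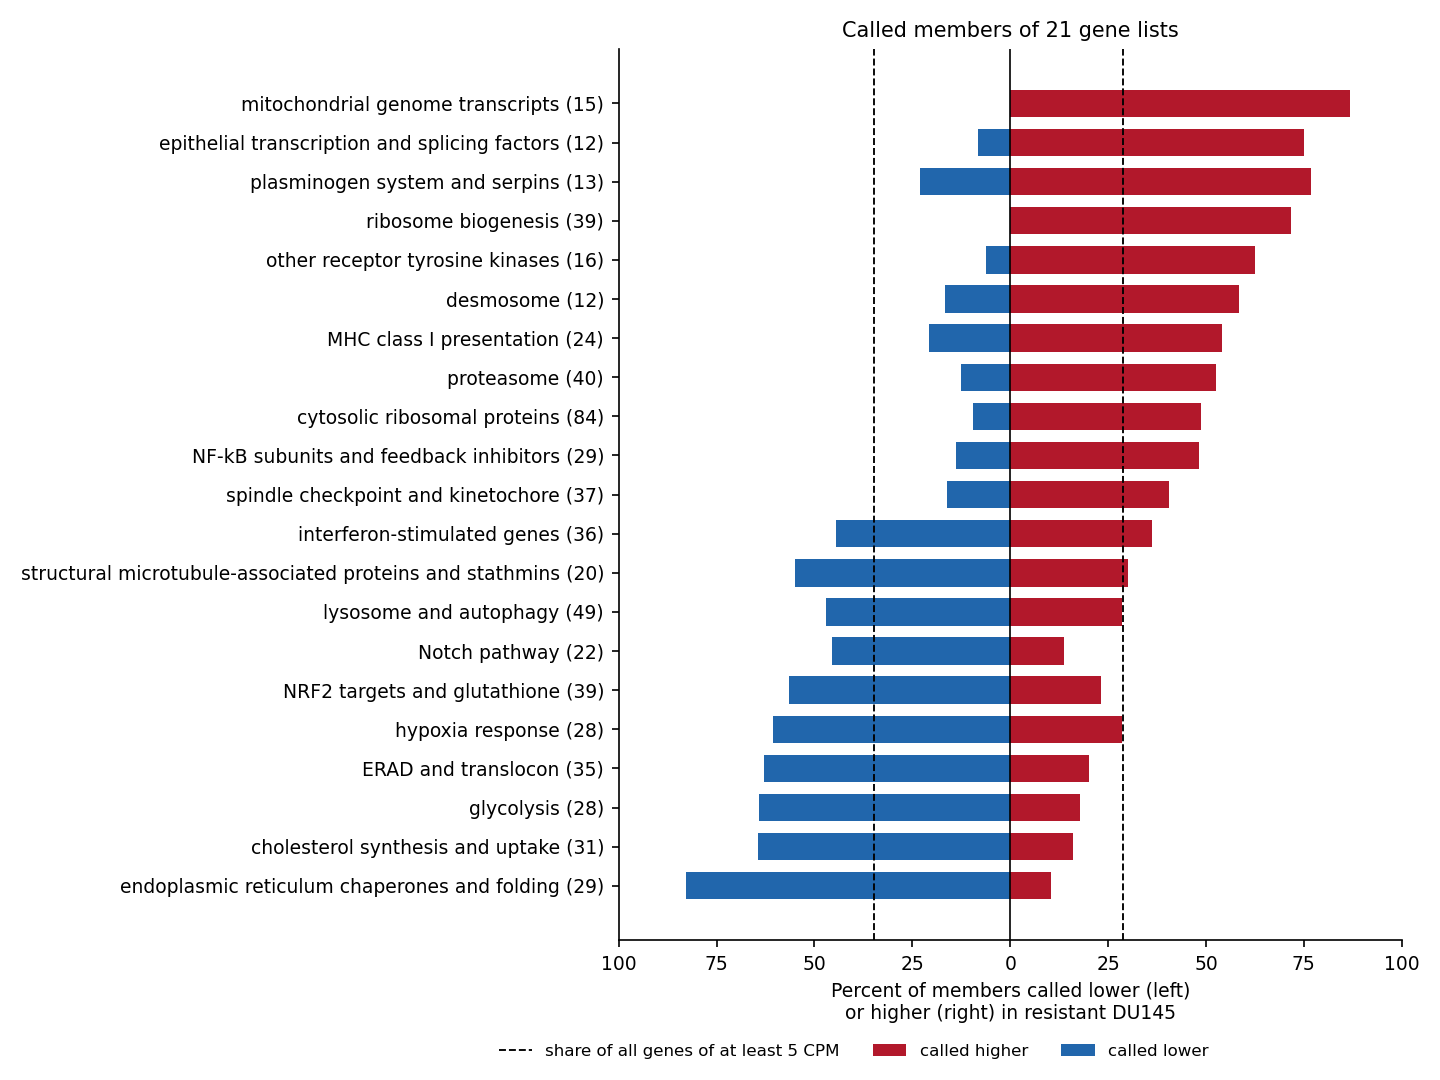
Percent of members called higher (right, red) or lower (left, blue) in DU145-R for 21 of the 90 gene lists, picked for display. Shares are over members of at least 5 CPM, whose number is in parentheses. Dashed lines mark the shares among all 11784 genes of that level, 28.9% higher and 34.7% lower. Among the lists shown, mitochondrial transcripts (protein and ribosomal RNA genes) reach farthest right, at 86.7%. The plasminogen system and serpins (76.9%), the epithelial factor list, which also holds membrane and protease genes (75.0%), and ribosome biogenesis (71.8%) follow. Chaperones of the endoplasmic reticulum reach farthest left of those shown.

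The endoplasmic reticulum folds secreted and membrane proteins. When unfolded protein builds up, the sensors IRE1, PERK and ATF6 induce chaperones, partly through the endoplasmic reticulum stress element. Of the chaperones and folding enzymes of this compartment, 24 of 29 were lower (82.8%) and 3 higher, with a median log2 change of -0.87. HSPA5, the chaperone BiP, had 2223, 2225 and 2096 CPM in the parental libraries and 788, 766 and 788 CPM in the resistant libraries (log2 change -1.48 ± 0.03, adjusted p = 4.27e-14). HSP90B1, GRP94, had 2294, 2232 and 2153 CPM in the parental libraries and 726, 695 and 688 CPM in the resistant libraries (log2 change -1.66 ± 0.04, adjusted p = 2.19e-14). PDIA4 and P4HB, disulfide isomerases, fell from 791 to 277 CPM (log2 change -1.52 ± 0.05) and from 1376 to 642 CPM (log2 change -1.10 ± 0.04), the lectin chaperone CANX from 1704 to 936 CPM (log2 change -0.87 ± 0.03), and CRELD1 and CRELD2, disulfide isomerase-like proteins, from 26.6 to 7.34 CPM (log2 change -1.86 ± 0.13) and from 70.2 to 19.7 CPM (log2 change -1.84 ± 0.09). Every resistant library was under every parental one in each of these 7 genes. Groups that did not overlap were required of genes named from a list by their change, and 51.2% of all tested genes had them. The 3 that rose were the oxidases ERO1A from 136 to 209.8 CPM (log2 change 0.63 ± 0.04) and ERO1B from 12.8 to 19.2 CPM (log2 change 0.58 ± 0.15), which reoxidise the isomerases, and TXNDC5 from 344 to 466 CPM (log2 change 0.44 ± 0.04).

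The stress element was searched as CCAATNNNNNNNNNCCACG on both strands of the same promoter windows. It occurred in 27 of 35116 windows (0.0769%) and in 16 of 13315 tested genes with a window (0.12%). Of the 29 chaperone and folding genes 26 had a window and 7 of these (26.9%) held the element: 6 were lower and 1, ERO1B, was higher. Their median log2 change was -1.08, against -0.87 for the 19 without a match, of which 15 were lower. Hence genes without these letters in the window were lower as well. Shown are the chaperones HSPA5, HSP90B1 and CALR, the folding gene CRELD2 with its larger fall and the 1 that rose, chosen after their values were seen. They are written 5′ to 3′ on the gene's strand with matches in capitals, and a match on the opposite strand begins CGTGG.
HSPA5 (chr9:125241366-125241434, minus strand): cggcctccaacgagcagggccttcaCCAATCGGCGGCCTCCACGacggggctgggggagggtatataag
HSP90B1 (chr12:103930191-103930364, plus strand): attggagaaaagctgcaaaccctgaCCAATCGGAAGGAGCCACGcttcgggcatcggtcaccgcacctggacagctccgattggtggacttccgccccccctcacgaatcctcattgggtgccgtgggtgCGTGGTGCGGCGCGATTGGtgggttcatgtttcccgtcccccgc
CALR (chr19:12938359-12938427, plus strand): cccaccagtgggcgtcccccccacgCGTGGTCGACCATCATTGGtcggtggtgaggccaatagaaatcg
CRELD2 (chr22:49918529-49918597, plus strand): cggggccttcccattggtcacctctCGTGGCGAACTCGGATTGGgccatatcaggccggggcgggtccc
ERO1B (chr1:236282158-236282208, minus strand): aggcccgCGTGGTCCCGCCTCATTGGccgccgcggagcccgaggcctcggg
HSP90B1 holds 2 matches, 1 on each strand, and its fall was the largest of the genes shown after CRELD2.

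**Figure D4:**
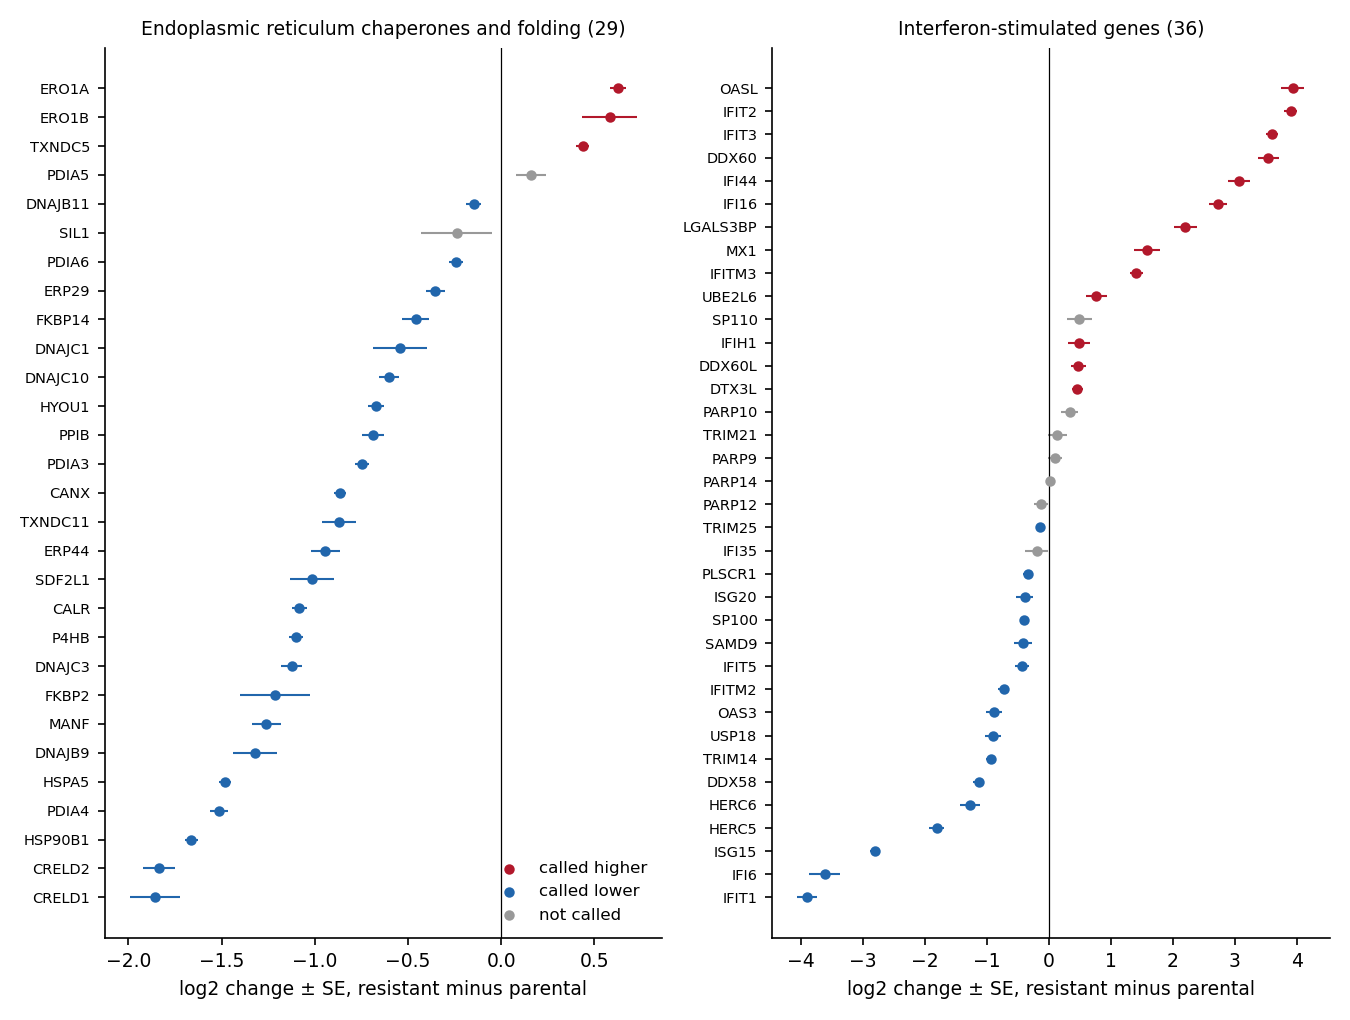
Log2 change with its standard error (horizontal axis) for the 29 chaperone and folding genes of the endoplasmic reticulum (left) and the 36 interferon-stimulated genes of at least 5 CPM (right), ordered by change; red was called higher, blue lower, grey not called. Of the folding genes 24 lie below 0 in blue, while called interferon-stimulated genes lie on both sides, 13 higher and 16 lower.

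The degradation branch of the same compartment was lower too. Of the genes for endoplasmic reticulum-associated degradation and translocation, 22 of 35 fell (62.9%) and 7 rose. HERPUD1, a degradation scaffold, had 138, 136 and 131 CPM in the parental libraries and 35.1, 36.2 and 39.1 CPM in the resistant libraries (log2 change -1.88 ± 0.08, adjusted p = 2.01e-11). The ligase SYVN1 and its partner SEL1L, which form the retrotranslocation channel, fell from 74.2 to 37.0 CPM (log2 change -1.003 ± 0.05) and from 284 to 137 CPM (log2 change -1.05 ± 0.05). SEC63, a translocon co-chaperone, rose from 45.4 to 97.0 CPM (log2 change 1.10 ± 0.06). Among the sensors and factors of the response (5 of 20 higher and 10 lower) EIF2AK3, which encodes PERK, fell from 36.9 to 14.9 CPM (log2 change -1.31 ± 0.09). The factor CREB3L2 fell from 159.6 to 38.2 CPM (log2 change -2.06 ± 0.08). XBP1 fell from 98.2 to 65.5 CPM (log2 change -0.58 ± 0.07). DDIT3, which encodes CHOP, fell from 33.5 to 10.9 CPM (log2 change -1.62 ± 0.13).

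ATF4, the translationally controlled factor of the amino acid response, itself rose from 257 to 289 CPM (log2 change 0.17 ± 0.04), and among its targets 14 of 42 were higher and 21 lower. ASNS, asparagine synthetase, and SLC1A4, a neutral amino acid carrier, fell from 167 to 122 CPM (log2 change -0.46 ± 0.07) and from 36.0 to 13.1 CPM (log2 change -1.46 ± 0.08). WARS1, the tryptophan tRNA synthetase, and SLC7A1, an arginine carrier, rose from 173 to 363 CPM (log2 change 1.07 ± 0.06) and from 139 to 225 CPM (log2 change 0.70 ± 0.07). In the cytosol, where 9 of 33 were higher and 14 lower, HSPH1, the HSP110 exchange factor, had 24.7, 16.9 and 18.1 CPM in the parental libraries and 126, 127 and 119 CPM in the resistant libraries (log2 change 2.64 ± 0.11, adjusted p = 1.81e-09). HSPA4L rose from 44.6 to 102 CPM (log2 change 1.20 ± 0.09). The small heat shock protein HSPB1 fell from 133 to 43.9 CPM (log2 change -1.60 ± 0.06). HSPA1A, the inducible HSP70, rose from 98.7 to 117 CPM (log2 change 0.24 ± 0.04). Among chaperones of the cytosol, genes moved in both directions.

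Targets of NRF2, the factor that answers oxidants and electrophiles, were lower in 22 of 39 members (56.4%) and higher in 9. NQO1, a quinone reductase, had 1907, 1829.8 and 1803 CPM in the parental libraries and 795, 747 and 739 CPM in the resistant libraries (log2 change -1.28 ± 0.05, adjusted p = 1.13e-11). EPHX1, an epoxide hydrolase, fell from 155 to 56.4 CPM (log2 change -1.46 ± 0.05). SOD2, the mitochondrial superoxide dismutase, rose from 157 to 393 CPM (log2 change 1.33 ± 0.04). In the iron and metallothionein list 7 of 28 were higher and 14 lower: the transferrin receptor TFRC had 438, 417 and 393 CPM in the parental libraries and 976, 1000.5 and 931 CPM in the resistant libraries. ACO1, the iron regulatory protein 1, rose from 63.1 to 187 CPM (log2 change 1.57 ± 0.05). The ferritin light chain FTL fell from 1643 to 998 CPM (log2 change -0.72 ± 0.04). MT2A, a metallothionein with close copies, rose from 207 to 443 CPM (log2 change 1.10 ± 0.06).

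Protein-coding transcripts of the mitochondrial genome were higher in DU145-R. It encodes 13 respiratory chain proteins, 2 ribosomal RNAs and 22 tRNAs, transcribed as long precursors from both strands. Of the 15 protein and ribosomal RNA genes, 13 rose and 2, the ribosomal RNAs MT-RNR1 and MT-RNR2, were not called; the median log2 change was 1.03. MT-ND1 had 1188, 1178 and 1154 CPM in the parental libraries and 3497, 3572 and 3528 CPM in the resistant libraries (log2 change 1.59 ± 0.03, adjusted p = 1.32e-15). MT-CO1 had 6560.4, 6357 and 6412 CPM in the parental libraries and 13232, 13014 and 13277 CPM in the resistant libraries (log2 change 1.03 ± 0.02, adjusted p = 4.27e-14). MT-ND5 rose from 2138 to 3427 CPM (log2 change 0.68 ± 0.04). The tRNA genes did not move as one: 7 rose, 11 fell and 4 were not called (median log2 change -0.29). MT-TN, the asparagine tRNA, fell from 189 to 55.4 CPM (log2 change -1.77 ± 0.06), and MT-TG, the glycine tRNA, rose from 10.1 to 19.7 CPM (log2 change 0.97 ± 0.13), both chosen after their values were seen. The tRNA genes are very short, so their counts are uncertain. The mitochondrial share of all counts, given above, did not overlap between the groups. Of the nuclear genes of the same respiratory complexes, 15 of 76 rose, 17 fell and 44 were not called (median log2 change -0.03). Of the genes for mitochondrial DNA maintenance and expression 12 of 24 were higher and 5 lower. TFAM, which packages and transcribes mitochondrial DNA, had 35.9, 36.8 and 33.1 CPM in the parental libraries and 78.7, 74.0 and 66.1 CPM in the resistant libraries (log2 change 1.05 ± 0.07, adjusted p = 1.03e-08). LRPPRC, which stabilises its messenger RNAs, had 201, 197 and 178 CPM in the parental libraries and 480.0, 465 and 433 CPM in the resistant libraries (log2 change 1.26 ± 0.05, adjusted p = 5.03e-11). The polymerase POLG rose from 61.0 to 111 CPM (log2 change 0.86 ± 0.06). TOP1MT, the mitochondrial topoisomerase, fell from 40.8 to 32.4 CPM (log2 change -0.33 ± 0.07). The libraries were made from oligo(dT)-selected RNA.

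Metabolic genes were lower in several pathways. In glycolysis 18 of 28 members fell (64.3%) and 5 rose. PFKFB4, which sets the level of the activator fructose 2,6-bisphosphate, had 74.1, 72.8 and 77.0 CPM in the parental libraries and 19.7, 17.9 and 25.4 CPM in the resistant libraries (log2 change -1.83 ± 0.11, adjusted p = 5.48e-09). PDK1, which shuts pyruvate dehydrogenase, fell from 71.5 to 33.5 CPM (log2 change -1.09 ± 0.08). HK1, the constitutive hexokinase, rose from 183 to 215 CPM (log2 change 0.23 ± 0.05). In the hypoxia list 17 of 28 fell and 8 rose. NDRG1 and the vasodilator peptide gene ADM, both hypoxia targets, fell from 268 to 81.1 CPM (log2 change -1.73 ± 0.07) and from 13.4 to 3.63 CPM (log2 change -1.88 ± 0.15), but EPAS1, which encodes the hypoxia factor HIF-2 alpha, had 10.4, 8.73 and 11.2 CPM in the parental libraries and 123, 115 and 112 CPM in the resistant libraries (log2 change 3.53 ± 0.11, adjusted p = 1.46e-12). The factor was high in all resistant libraries while the majority of listed targets were low. IDH2, a mitochondrial isocitrate dehydrogenase, rose from 10.2 to 33.2 CPM (log2 change 1.70 ± 0.11) in a tricarboxylic acid cycle list of 9 of 24 higher and 5 lower.

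Cholesterol synthesis and uptake genes are in many cases driven by SREBP2 when sterols are scarce. Their list, which also holds sterol export genes, was lower in 20 of 31 members (64.5%) and higher in 5. SQLE, squalene epoxidase, fell from 159.8 to 96.0 CPM (log2 change -0.74 ± 0.06). CYP51A1 fell from 180.0 to 109.6 CPM (log2 change -0.72 ± 0.06). The transfer protein STARD4 fell from 105 to 35.8 CPM (log2 change -1.55 ± 0.06). Those that rose included genes for sterol leaving the lysosome or the cell: NPC1 had 129, 126 and 132 CPM in the parental libraries and 353, 356 and 368 CPM in the resistant libraries. NPC2 rose from 48.1 to 109 CPM (log2 change 1.18 ± 0.07). The exporter ABCA1 rose from 5.82 to 12.4 CPM (log2 change 1.09 ± 0.14). The ABC transporter ABCG1 of the same list was called lower, near the floor in both lines at 0.380 and 0.0202 CPM. HMGCS1 stood near the threshold, at 149.7, 148 and 151 CPM in the parental libraries and 142, 127 and 119 CPM in the resistant libraries (adjusted p = 0.0449), and its call was lost, for example, without resistant replicate 3 (adjusted p = 0.179). For fatty acid genes 12 of 37 were higher and 15 lower, with the elongase ELOVL2 from 23.2 to 69.8 CPM (log2 change 1.59 ± 0.11) and the ligase ACSL3 lower from 187 to 91.1 CPM (log2 change -1.04 ± 0.05). Of nucleotide and one-carbon genes 15 of 34 were higher and 9 lower: NT5E, the ectonucleotidase CD73, rose from 112 to 300.2 CPM (log2 change 1.42 ± 0.05).

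Genes of ribosome production and the proteasome were called higher more often than lower. Ribosome biogenesis factors, which process and assemble ribosomal RNA in the nucleolus, rose in 28 of 39 members (71.8%) and none fell, with a median log2 change of 0.38. BYSL had 31.4, 26.3 and 28.8 CPM in the parental libraries and 60.3, 55.9 and 56.8 CPM in the resistant libraries. WDR43 had 104, 101 and 99.8 CPM in the parental libraries and 204, 203 and 188 CPM in the resistant libraries, and NOP14 rose too from 64.2 to 118 CPM (log2 change 0.88 ± 0.05), which with BYSL serve the small subunit. Of the cytosolic ribosomal proteins 41 of 84 rose and 8 fell; these genes have many processed copies, so reads may be shared. In the proteasome 21 of 40 rose (52.5%) and 5 fell: PSMB5, the chymotrypsin-like subunit, rose from 71.9 to 152 CPM (log2 change 1.08 ± 0.06) and POMP, the assembly chaperone, rose from 40.0 to 96.7 CPM (log2 change 1.27 ± 0.08). Lysosome and autophagy genes gave 14 of 49 higher and 23 lower, with the protease CTSL from 118 to 361 CPM (log2 change 1.61 ± 0.04) and the regulator MITF from 12.1 to 39.4 CPM (log2 change 1.70 ± 0.15), and the proton pump subunit ATP6V1A lower from 128 to 67.6 CPM (log2 change -0.93 ± 0.06).

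Chromatin and transcription factor genes were mixed. Of the DNA and histone methylation enzymes 17 of 46 were higher and 18 lower, with DNMT3B from 5.42 to 10.5 CPM (log2 change 0.96 ± 0.15) and the demethylase KDM4B lower from 78.6 to 32.2 CPM (log2 change -1.29 ± 0.09). Of deacetylases, acetyltransferases and remodellers 10 of 45 rose and 20 fell: HDAC5 fell from 23.1 to 7.57 CPM (log2 change -1.61 ± 0.11) and SMARCD3, a subunit of the SWI/SNF remodeller, fell from 28.2 to 8.10 CPM (log2 change -1.80 ± 0.11). SOX9, a progenitor and glandular factor, had 1.04, 0.961 and 1.09 CPM in the parental libraries and 21.5, 24.3 and 18.5 CPM in the resistant libraries (log2 change 4.37 ± 0.13, adjusted p = 3.85e-12). KLF12 fell from 34.0 to 10.2 CPM (log2 change -1.74 ± 0.10). The SOX, FOX, KLF and GATA list gave 16 of 33 higher and 8 lower, and the HOX list 6 of 10 higher and none lower, HOXB9 among them from 8.01 to 25.7 CPM (log2 change 1.68 ± 0.22). Over all 34 tested HOX genes, low ones included, 13 were higher and 6 lower. The zinc finger list of 362 genes split, 87 higher and 89 lower. ZNF711 rose from 0.935 to 16.7 CPM (log2 change 4.15 ± 0.17). Clustered protocadherins gave 6 of 15 higher and 3 lower, with PCDHB14 higher from 2.32 to 13.3 CPM (log2 change 2.52 ± 0.21) and PCDHB2 lower from 30.0 to 15.3 CPM (log2 change -0.97 ± 0.10).

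Membrane receptors, channels and guidance cues changed in both directions. ASIC1, an acid-sensing sodium channel, had 138, 138 and 138 CPM in the parental libraries and 25.1, 25.03 and 32.3 CPM in the resistant libraries (log2 change -2.33 ± 0.08, adjusted p = 5.21e-12). CLIC3, an intracellular chloride channel protein, fell from 16.9 to 0.644 CPM (log2 change -4.71 ± 0.29) whereas its relative CLIC2 rose from 1.29 to 22.7 CPM (log2 change 4.13 ± 0.36). The calcium-activated potassium channel KCNN4 fell from 15.3 to 4.54 CPM (log2 change -1.75 ± 0.08) and KCNK1 rose from 0.451 to 7.15 CPM (log2 change 3.99 ± 0.22). NTN4, a netrin of basement membranes, had 2.36, 1.05 and 1.91 CPM in the parental libraries and 74.7, 72.3 and 69.3 CPM in the resistant libraries (log2 change 5.34 ± 0.17, adjusted p = 1.22e-10). ROBO1, the Slit receptor, and SEMA3E, a secreted semaphorin, fell from 34.1 to 8.89 CPM (log2 change -1.94 ± 0.09) and from 10.7 to 0.580 CPM (log2 change -4.20 ± 0.48). GPRC5C, an orphan receptor, rose from 0.680 to 11.6 CPM (log2 change 4.10 ± 0.31). Potassium channels gave 4 of 14 higher and 2 lower, sodium, calcium and TRP channels 7 of 30 higher and 15 lower, aquaporins, carbonic anhydrases and ion pumps 7 of 32 higher and 19 lower, G protein-coupled receptors and their regulators 17 of 45 higher and 14 lower, and guidance and synaptic adhesion genes 12 of 22 higher and 6 lower.

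Position along the genome also separated the genes. Over the 15251 genes of at least 1 CPM, 56.6% were called, 26.9% higher and 29.7% lower, with a median log2 change of -0.02. Chromosome 13 had a median of 0.52 over 241 genes, with 49.8% higher, and chromosome 20 a median of 0.25 over 380 genes, with 48.9% higher. Among nuclear chromosomes, chromosome 3 lay lowest, at -0.26 over 861 genes, with 47.2% lower. In stretches of 25 neighbouring genes, WASF3 to RFC3 (chr13:26557683-33966558, GRCh38) had a median of 1.01 with 21 genes higher and 1 lower, and FREM2 to NUFIP1 (chr13:38687077-44989471) also 1.01, with 19 higher and 2 lower.

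The chromosome 13 stretches hold named genes of several lists above. HSPH1, BRCA2, RFC3, POMP and SLC7A1 lie in the first, together with HMGB1, a chromatin protein, which had 198, 211 and 188 CPM in the parental libraries and 481, 458 and 468 CPM in the resistant libraries (log2 change 1.23 ± 0.05, adjusted p = 7.03e-12). The second holds FOXO1, a forkhead factor, from 2.11 to 5.75 CPM (log2 change 1.45 ± 0.20), and TSC22D1 from 27.9 to 70.8 CPM (log2 change 1.34 ± 0.07). Other genes of chromosome 13 fell, such as BORA, KLF12, the adhesion protein LMO7 from 359.7 to 129 CPM (log2 change -1.47 ± 0.04) and the co-chaperone SUGT1 from 121 to 55.7 CPM (log2 change -1.12 ± 0.05). Elsewhere, SALL2 to NGDN (chr14:21521080-23478804) had a median of 0.95 with 21 higher and 0 lower, and includes MMP14, PSMB5, the methyltransferase PRMT5 from 73.3 to 159.8 CPM (log2 change 1.12 ± 0.05) and LRP10 from 86.7 to 263 CPM (log2 change 1.60 ± 0.04). HGH1 to ZNF251 (chr8:144137774-144756417) had a median of -0.83 with 18 lower and 4 higher, and includes HSF1, the heat shock factor, from 119 to 62.9 CPM (log2 change -0.92 ± 0.05) and the helicase RECQL4 from 79.4 to 44.99 CPM (log2 change -0.82 ± 0.06). BRK1 to TMEM43 (chr3:10115675-14143680) had a median of -0.68 with 16 lower and 2 higher, SEC13 from 109 to 60.2 CPM (log2 change -0.86 ± 0.06) among them.

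**Figure D5:**
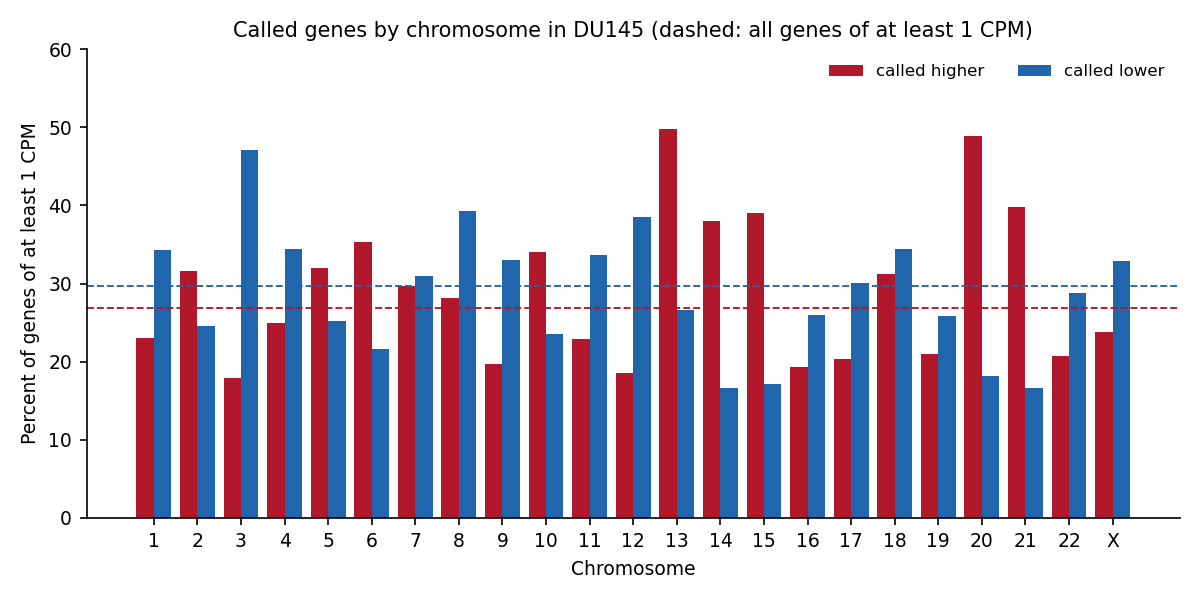
Percent of genes of at least 1 CPM called higher (red) or lower (blue) in DU145-R on the autosomes and the X chromosome, with the shares among all 15251 such genes as dashed lines in the same colours. Chromosomes 13 and 20 have the tallest red bars, at 49.8% and 48.9%, and chromosome 3 the tallest blue bar, at 47.2%.

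For 6 of these genes the change in DU145 was also set against that in PC3, in the same model. Over all tested genes 42.1% differed between the lines in their change, and the 6 genes, ABCB1, CDH1, DSP, HSPA5, MT-CO1 and TUBB3, were among them, with values in the closing section.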

How the data were processed

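RNA-seq of the 6 DU145 libraries, fitted together with the 6 PC3 libraries, was read from 1 deposited table per library. Each holds whole-number read counts per gene and FPKM values (fragments per kilobase and per 1000000 counts), both as deposited by the authors, with 71 genes lacking an FPKM in each file. Per the submitters' processing notes, reads were handled with tools that include HISAT2 2.0.4 (an aligner), StringTie 1.3.4d (an assembler and quantifier), cutadapt 1.9 (a trimmer), edgeR and DESeq2, with hg18 as the build. Gene positions, however, match GRCh38: of 38611 gene identifiers, 37385 are in GENCODE release 29, and 37345 of these overlap its gene of that identifier. Which program counted the reads, and with which strand setting, is not stated in the labels. Values of 4 were more frequent than 3 or 5 (790 against 694 and 403 genes in parental replicate 1), and how such counts arose was not stated.

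Genes were filtered with filterByExpr, scaled by TMM and tested with edgeR 4.0.16 (R 4.3.3), a quasi-likelihood F test with 1 mean for each of 4 groups (8 residual degrees of freedom) and Benjamini-Hochberg adjustment over all 24128 genes tested. Called means an adjusted p below 0.05. All adjusted p-values in the text are from this test unless another tool is named. CPM in the text are counts per 1000000 of the TMM-scaled library. Standard errors of log2 changes were derived from the test, as the absolute log2 change divided by the square root of F. The steps were tested on simulated counts.

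Named genes are a set of key genes, up to 3 called genes in each direction per list (at least 5 CPM in the higher group, no overlap between groups), the 12 largest changes in each direction by log2 change (at least 10 CPM) and by CPM, and the stretches of 25 neighbouring genes of at least 1 CPM with the highest and lowest medians. This gave 669 genes, of which the text names some, and some are not reported here. The contrast, the 90 gene lists and the named genes were chosen with earlier results of these data known.

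For these genes named in the text, at least 10% of the exon length is shared with another tested gene, so their counts are uncertain: GAPDH, SLCO1B3, ALDH1A3, TUBB, TUBB6, TUBA4A, TUBA1B, TTLL3, VASH1, KIFC1, KIFC2, BORA, FANCF, CDH3, KRT18, VIM, HSPG2, LRIG1, DUSP6, VGLL4, RNF43, IFIT2, PSMB8, BCL2L1, DDIT3, ASNS, NOP14, PCDHB2 and PRMT5. Counts of close copies, such as tubulins, metallothioneins, ribosomal proteins and HLA genes, are likewise uncertain.

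The 22 alternatives were DESeq2 1.42.0, limma-voom 3.58.1, DU145 libraries alone, RLE scaling, removal of mitochondrial genes, no filter, a 5 CPM filter, limma on log2(FPKM + 1) and log2(FPKM + 0.1), a replicate block, and omission of each of the 12 libraries. Promoter windows are from RefSeq (GRCh38.p14). Totals of 62513103 to 68170880 counts per DU145 library limit precision at low levels.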

Additional observations from a re-analysis of the deposited data

Results flagged for a closer look

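The change from parental to resistant cells was compared between DU145 and PC3 for 6 genes, with 3 parental and 3 resistant libraries per line, by the interaction contrast of edgeR adjusted over all genes tested. Each of the 6 differed. The labels give a starting docetaxel concentration of 0.5 and a reached IC50 of 15 for PC3, against 10 and 1800 for DU145, so the lines also differ in selection.

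ABCB1, the drug efflux pump, changed by 6.65 ± 0.54 on the log2 scale in DU145 and by -1.75 ± 1.44 in PC3 (PC3 adjusted p = 0.384). The difference was 8.40 ± 1.61 (adjusted p = 0.00191). PC3 levels were 0.121 CPM in parental and 0.0371 CPM in resistant cells, where few reads were counted.

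CDH1, E-cadherin, rose in DU145 by 4.29 ± 0.31 and fell in PC3 from 9.94 to 1.03 CPM, a log2 change of -3.29 ± 0.33. The difference was 7.57 ± 0.45 (adjusted p = 1.07e-07). DSP, desmoplakin, had the widest difference of the 6, 10.26 ± 0.29 (adjusted p = 3.29e-11), with 7.83 ± 0.22 in DU145 and -2.43 ± 0.19 in PC3, where it fell from 10.8 to 2.01 CPM. Both adhesion genes moved in opposite directions in the lines.

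HSPA5, the endoplasmic reticulum chaperone BiP, fell by 1.48 ± 0.03 in DU145 and rose by 0.25 ± 0.03 in PC3, from 693 to 827 CPM. The difference was -1.74 ± 0.05 (adjusted p = 2.18e-13). MT-CO1, a mitochondrially encoded oxidase subunit, rose by 1.03 ± 0.02 in DU145 and fell in PC3 from 16519 to 10363 CPM, a change of -0.67 ± 0.02. The difference was 1.70 ± 0.03 (adjusted p = 6.05e-15). TUBB3, the beta-tubulin isotype III, rose in both lines, by 1.05 ± 0.07 in DU145 and by 0.63 ± 0.07 in PC3, from 96.8 to 150.3 CPM. The difference was 0.41 ± 0.10 (adjusted p = 0.00376).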

How the results depend on the processing

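Of the 9554 genes called, between 81.2% (5 CPM filter, 12266 genes tested) and 99.5% (DESeq2) stayed called in the same direction under the alternatives, and the number called ran from 8205 to 10565. Leaving out 1 library at a time gave 8720 to 9596 calls. The share of calls that were higher ran from 46.6% to 49.3%. Calls of at least 1 log2 unit, 3135 in all, fell to 1604 under the 5 CPM filter, which tests fewer genes, and to 1014 on log2(FPKM + 1), a scale that shrinks changes of low genes. The replicate block gave 9047 calls, 4283 higher and 4764 lower. Same-numbered DU145 libraries did not deviate together (correlations of -0.0218 to -0.00046 over 12202 genes), so the numbers give no pairing. No named gene changed direction. Of the 636 named genes called, 31 lost the call under at least 1 alternative, ZEB1 and HMGCS1 among them. Counted over all tested members, in each alternative 24 endoplasmic reticulum chaperones were lower, with medians of -0.88 to -0.77, and 27 to 31 ribosome biogenesis genes were higher. The medians of 21 of 85 lists changed sign under some alternative, among them the tubulins (-0.17 to 0.12) and the interferon-stimulated genes (-0.03 to 0.20), and 8 of the 21 did so by scaling, unit or tool. Low genes were less certain: at mean counts of 5 to 10 the variance between replicates averaged 7.69 (parental) and 7.87 (resistant) times the mean. The source of this spread was not tested.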

Other observations

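Of 27 nuclear copies of mitochondrial genes tested, 6 were lower, 0 higher and 21 not called. Among all 24128 tested genes, 20.7% were lower and 18.9% higher. In a cluster on chromosome 1, MTND2P28 had 679.8, 685 and 709 CPM in the parental libraries and 267, 264 and 260.3 CPM in the resistant libraries (log2 change -1.39 ± 0.04, adjusted p = 2.21e-13). MTCO1P12 fell from 229.6 to 102.1 CPM (log2 change -1.17 ± 0.08) and MTATP6P1 from 716 to 424 CPM (log2 change -0.76 ± 0.04). These copies are nearly identical to the mitochondrial genes, so their counts are uncertain. MTCO2P12 and MTCO3P12, also on chromosome 1, and MTND4P12, on chromosome 5, were called lower too. These genes were chosen after their values were seen.

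At the ends of the range, 182 genes had no count in any parental library and were called higher, and 242 had none in any resistant library and were called lower.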
